A study of Mus musculus with 5 samples.

Results

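The collagen chain genes were taken as every gene whose symbol in the platform's probe annotation is Col, a number, a and a number, such as Col4a3. The annotation named 42 of them among 18193 genes, and each was read from its probe set of highest mean among those with exactly 1 symbol. The arrays are named by their labels: KA/KA 1, KA/KA 2 and KA/KA 3 come from mice in which both copies of IKKα carry K44A, a knock-in that removes the kinase activity, and WT 1 and WT 2 from wild-type littermates. IKKα belongs to the kinases that switch on NF-κB transcription factors. All mice were on the FVB background and 4 weeks old, and all samples were labelled as B220+ cells enriched with magnetic beads from the marrow of tibias and femurs; B220 is a surface form of CD45 on developing B cells. The knock-in is carried in the germ line, so it is not limited to B cells. Whether each array holds RNA of a single animal or of pooled animals is not stated in the labels, and p-values therefore speak only of array-to-array spread, which may be technical. The series text sets KA/KA against WT, which asks what IKKα kinase activity controls in early B cells.

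Collagens are secreted or membrane proteins built as triple helices of α chains with a glycine at every turn, and each type is named by the chains it combines. Fibrillar collagens (types I, II, III, V, XI, XXIV and XXVII) form the ropes of connective tissue and are made mainly by fibroblasts, smooth muscle cells, osteoblasts and chondrocytes. Type IV collagen forms the sheet of the basement membrane under epithelium and around vessels and muscle; its α1 and α2 chains are found in nearly all basement membranes, while networks holding α3, α4 and α5 are typical of the alveoli of the lung and the glomeruli of the kidney. The other chains include the beaded filaments of type VI, fibril-associated collagens, the transmembrane collagens and the multiplexins of basement membrane zones.

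The labels did not describe all arrays equally well. The poly-A control transcripts, which carry no mouse RNA, divided the arrays into a pair with a median signal of 11897 and 7305 (KA/KA 1 and WT 1) and 3 arrays with 136, 249 and 46.9 (KA/KA 2, KA/KA 3 and WT 2). Of 11 B-lineage markers, 11 were lower on the latter 3 arrays in limma's test at an adjusted p under 0.05, and 12 of 14 lung epithelial markers were higher. Some B-lineage signal remained, as 5 of the 11 were above the probe set median of the array on all 3 (Cd79b read 9.44, 11.10 and 9.39). Rag1, an enzyme that cuts DNA to assemble antigen receptor genes, read 4.09, 4.09 and 4.10 on those arrays, close to the floor of the scale, against 12.80 and 12.79. The 3 arrays therefore go against their label of B220+ marrow cells and are called lung-like here, and the pair is called marrow-like. Values are log2(signal + 16), which understates changes of dim genes, and precision is limited by having only 5 arrays. The probe set medians of the arrays lay from 6.80 to 7.17 on this scale, and "above the median" below refers to the median of the same array.

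Collagen genes were higher on the lung-like arrays, most of all those of the basement membrane. Of the 42 genes, 15 were higher and 0 lower (limma with genotype as a covariate, adjusted p under 0.05), where 14.9% of all genes tested were higher and 8.46% lower. The called genes were 5 of 6 type IV chains, 2 of 11 fibrillar chains and 8 of 25 other chains. Medians of the difference (lung-like minus marrow-like) were 5.08 for type IV, 1.34 for fibrillar and 0.74 for other chains, beside 0.14 over all genes (plain differences of means). All 3 lung-like values lay above both marrow-like values for 23 of the 42 genes and below them for 3, as for 33.3% and 23.6% of all genes. Above the array median on all 3 lung-like arrays were 22 collagen genes (58.2% of all genes), and on both marrow-like arrays 16 (56.7%). The count of 15 changed with the array left out: it was 6 without KA/KA 1, 5 without WT 1, 5 without WT 2, 18 without KA/KA 2 and 19 without KA/KA 3. With each array centred on its median, 14 collagen genes were higher and 0 lower, while calls over all genes moved from 2718 higher and 1540 lower to 2100 and 2685, and the median over all genes to -0.20. In bulk RNA, fewer cells of a type and less RNA per cell cannot be told apart, and whatever else separates the array sets cannot be told apart from their cell content.

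**Figure D1:**
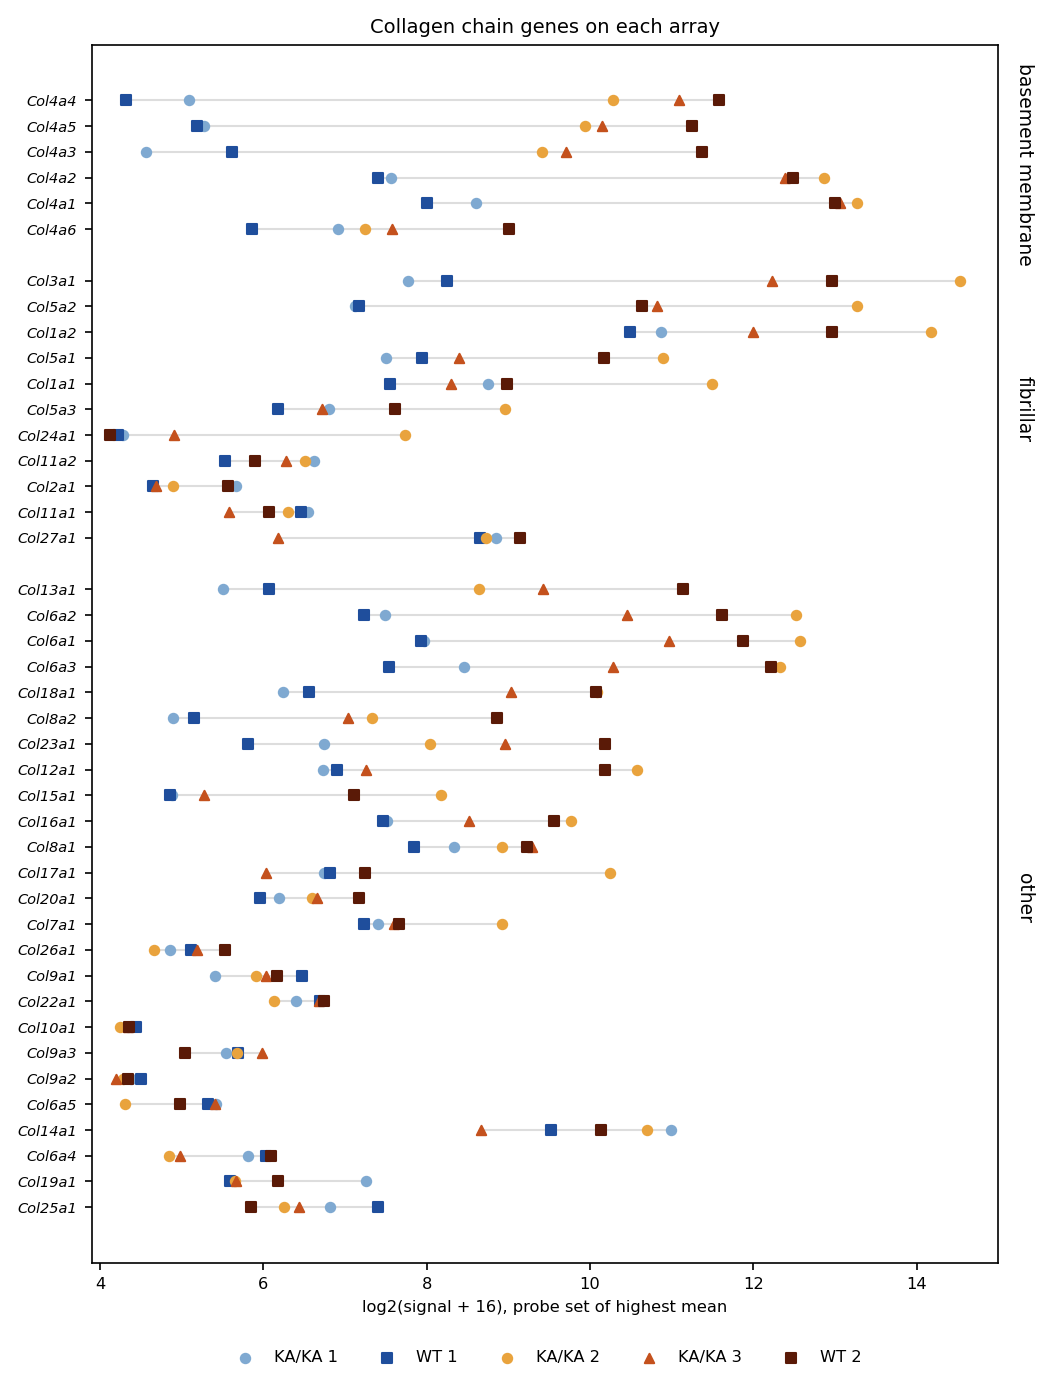
Signal of each of the 42 collagen genes on the 5 arrays, as log2(signal + 16) on the x axis; each symbol is 1 array (blue for the marrow-like pair, orange to brown for the lung-like arrays), and genes are grouped by class and ordered within it by the difference between the array sets. Col4a1 to Col4a5 have their lung-like symbols far to the right of the blue ones, while Col2a1, Col9a2 and Col10a1 stay near the left edge on every array.

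Of the 3 classes, the type IV chains had the largest median difference between the array sets. Col4a1, the α1 chain, read 8.60 on KA/KA 1 and 8.00 on WT 1, against 13.28, 13.07 and 13.00 on KA/KA 2, KA/KA 3 and WT 2. Its partner Col4a2 read 7.56 and 7.41 against 12.87, 12.39 and 12.48. Both chains were above the array median on the marrow-like pair as well, and within the lung-like set their values spanned 0.28 and 0.48. The differences were 4.75 ± 0.24 for Col4a1 and 5.07 ± 0.25 for Col4a2 (limma, ± SE, 3 and 2 arrays; adjusted p = 0.000996 and 0.000984).

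The α3, α4 and α5 chains were below the array median on both marrow-like arrays and above it on all lung-like arrays. Col4a3 read 4.57 and 5.62 against 9.41, 9.70 and 11.38 in the same order. Col4a4 read 5.09 and 4.32 against 10.28, 11.09 and 11.58, and Col4a5 read 5.27 and 5.18 against 9.94, 10.15 and 11.24. The lowest lung-like value of each lay several units above both marrow-like values, with differences of 5.32 ± 0.35, 6.31 ± 0.50 and 5.32 ± 0.40 (limma, adjusted p = 0.0013, 0.00159 and 0.00144). The called chains, α1 to α5, also passed with any 1 array left out. Col4a6, the α6 chain, known from smooth muscle and some epithelial basement membranes, read 6.92 and 5.86 against 7.25, 7.57 and 9.01. Its sets did not overlap, but it did not pass (1.63 ± 0.66, limma, adjusted p = 0.136).

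The type IV genes lie as neighbours on 3 chromosomes. In the RefSeq annotation of GRCm38.p6, Col4a1 (chr8:11198423-11312889) and Col4a2 (chr8:11312805-11449287) share 85 bases at their starts, and Col4a4 (chr1:82448419-82587034) and Col4a3 (chr1:82586921-82722059) share 114 bases. Col4a6 (chrX:141165403-141474095) and Col4a5 (chrX:141475370-141689236) run apart from starts 1274 bases from each other, and this is the pair whose members differed most in the comparison of the sets. The bases just outside the annotated ends of these neighbours are given from RefSeq, since the X-linked pair holds the type IV chain that did not pass. Capitals mark the TATA box letters TATAAA, the CCAAT box and the GC box letters GGGCGG, each searched on both strands.
Col4a5: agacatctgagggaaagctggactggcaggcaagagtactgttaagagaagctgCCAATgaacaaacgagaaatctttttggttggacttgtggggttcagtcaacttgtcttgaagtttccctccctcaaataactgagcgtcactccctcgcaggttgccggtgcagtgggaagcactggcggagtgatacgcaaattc
Col4a6: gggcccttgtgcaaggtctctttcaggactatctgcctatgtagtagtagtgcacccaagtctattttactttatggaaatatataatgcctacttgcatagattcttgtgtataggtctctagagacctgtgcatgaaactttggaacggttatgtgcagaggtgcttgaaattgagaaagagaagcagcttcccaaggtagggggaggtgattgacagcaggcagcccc
The first (chrX:141475169-141475369, plus strand) holds 1 CCAAT, and the second (chrX:141474096-141474326, minus strand) holds none of the letters searched. The search windows of both genes reach further, into the annotated gene, and each holds a GGGCGG that does not lie wholly within the printed bases. Promoters of 33 of the 42 genes were in the table, as 36 windows of 250 bases before a start. The GC box letters were in 58.3% of these windows and in 32.7% of all 32851 windows. The CCAAT box was in 36.1% and 33.8%, and the TATA box letters in 13.9% and 12.4%. A match is a description of letters and shows no binding.

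**Figure D2:**
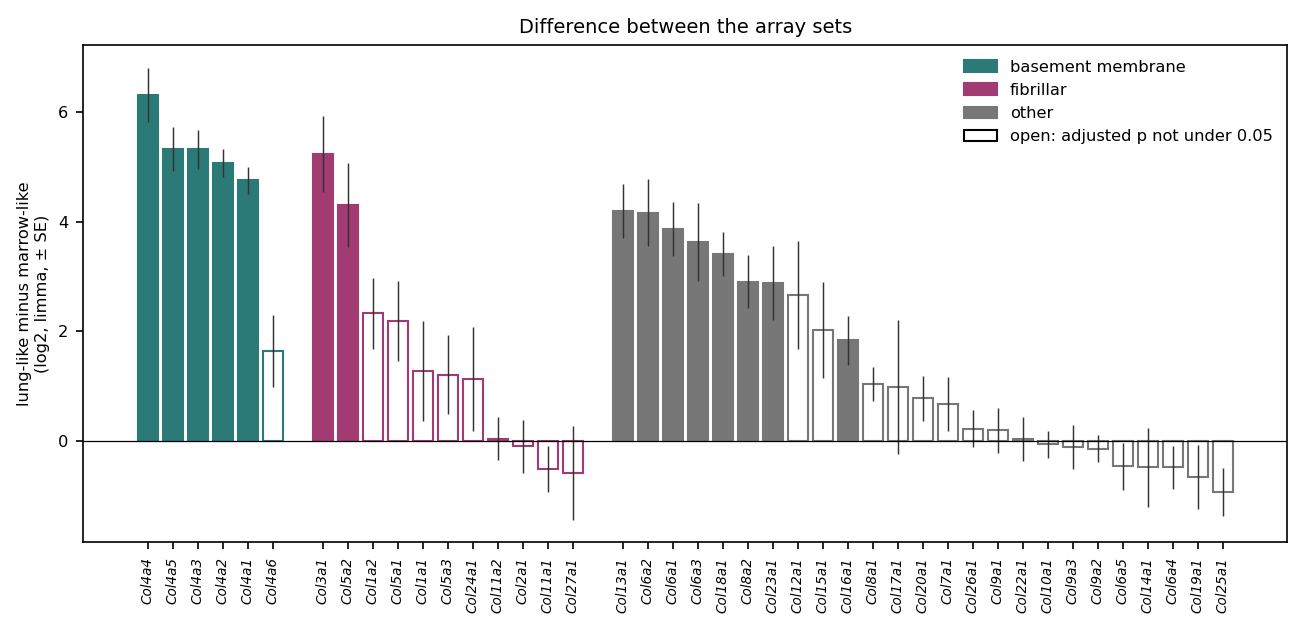
Difference between the array sets for each collagen gene (lung-like minus marrow-like, log2, limma estimate on the y axis, whiskers ± SE); filled bars passed at an adjusted p under 0.05 and open bars did not. The bars of Col4a1 to Col4a5 run from 4.75 to 6.31, and no bar below 0 is filled.

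Among the fibrillar genes only Col3a1 and Col5a2 passed between the sets, and the lung-like arrays differed among themselves. Col3a1, the chain of type III collagen of elastic organs, read 7.77 on KA/KA 1 and 8.25 on WT 1, against 14.53, 12.23 and 12.97 on KA/KA 2, KA/KA 3 and WT 2. Col5a2, a chain of type V collagen that starts fibrils, read 7.12 and 7.17 against 13.27, 10.82 and 10.64. The sets were apart for both, at 5.23 ± 0.69 and 4.30 ± 0.77 (limma, adjusted p = 0.00566 and 0.0138). Without KA/KA 1 these calls were lost (limma, adjusted p = 0.109 and 0.187), and likewise without WT 1 (0.0806 and 0.105) or WT 2 (0.0734 and 0.0969). The genes are neighbours on chromosome 1, Col3a1 at chr1:45311538-45349706 and Col5a2 at chr1:45374331-45503282.

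Both chains of type I collagen, the main protein of bone, tendon and skin, were above the array median on the marrow-like pair as well. Col1a2, its α2 chain, read 10.87 and 10.49 there and 14.17, 11.99 and 12.96 on the lung-like arrays, so the sets were apart but the difference of 2.33 ± 0.65 did not pass (limma, adjusted p = 0.0524). Col1a1, the α1 chain, read 8.75 and 7.55 against 11.49, 8.30 and 8.98, and here the sets overlapped (1.27 ± 0.91, adjusted p = 0.37). Ibsp, a matrix protein of osteoblasts, fell on the lung-like arrays (-3.19 ± 0.47, limma, adjusted p = 0.00756; 8.64 and 9.54 against 5.73, 6.24 and 5.64), and the other 4 measured osteoblast markers did not pass. The part of bone-forming cells in the marrow-like collagen signal was not tested. Col5a1 (7.50 and 7.94 against 10.89, 8.40 and 10.17) and Col5a3 (6.81 and 6.18 against 8.96, 6.72 and 7.61) did not pass either.

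With the settings used here Col3a1 passed between the sets and Col1a2 narrowly did not. Col1a2 did pass with a pseudocount of 1, quantile normalisation, either filter on dim probe sets, or no genotype covariate. It also passed without KA/KA 2 and without KA/KA 3. The promoter stretches of these genes differ in base composition. They are given from RefSeq (GRCm38.p6), each 250 bases before the start on the plus strand, with the same motifs in capitals.
Col3a1: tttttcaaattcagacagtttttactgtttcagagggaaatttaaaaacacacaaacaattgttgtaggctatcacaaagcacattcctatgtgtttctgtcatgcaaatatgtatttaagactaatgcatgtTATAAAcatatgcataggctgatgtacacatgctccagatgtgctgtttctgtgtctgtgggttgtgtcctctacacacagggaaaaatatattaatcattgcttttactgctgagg
Col1a2: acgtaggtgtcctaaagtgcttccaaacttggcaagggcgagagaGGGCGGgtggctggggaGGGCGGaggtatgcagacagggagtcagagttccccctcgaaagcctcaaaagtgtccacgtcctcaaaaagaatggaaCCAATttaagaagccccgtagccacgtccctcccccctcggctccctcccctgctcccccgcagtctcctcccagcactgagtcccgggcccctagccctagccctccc
The Col3a1 stretch (chr1:45311288-45311537) is 35.2% G and C with 1 TATAAA at 117 bases before the start. The Col1a2 stretch (chr6:4505368-4505617) is 62% G and C, with GGGCGG at 205 and 188 bases and CCAAT at 109 bases before the start, and no match overlapped another.

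The fibrillar, fibril-associated and network collagens of cartilage were dim on every array. Of the 7 genes of types II, IX, X and XI, all 7 were below the array median on all 5 arrays, as were 27.5% of all genes, and none passed between the sets. Col2a1, the main collagen of cartilage, read 5.66, 4.65, 4.90, 4.69 and 5.57 on KA/KA 1, WT 1, KA/KA 2, KA/KA 3 and WT 2. Col10a1, made by hypertrophic chondrocytes, stayed between 4.25 and 4.44. Of 10 cartilage markers outside the collagens, Acan lay between 6.33 and 6.97 and never above the array median on the lung-like arrays, whereas Cytl1 read 11.15 and 10.92 on KA/KA 3 and WT 2 but 6.46 on KA/KA 2. The fibrillar chains Col24a1 and Col27a1 followed no set. Col24a1 was above the array median on KA/KA 2 alone (7.74, against 4.12 to 4.90 elsewhere), and Col27a1 was low on KA/KA 3 alone (6.17, against 8.66 to 9.14), which its second probe set did not show (7.75 on KA/KA 3, 7.77 to 8.20 elsewhere).

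Type VI collagen, whose chains form beaded filaments around cells, was higher on the lung-like arrays through its 3 classic chains. Col6a1 read 7.96 and 7.93 on the marrow-like pair and 12.57, 10.97 and 11.87 on KA/KA 2, KA/KA 3 and WT 2. Col6a2 read 7.49 and 7.23 against 12.52, 10.45 and 11.62, and Col6a3 read 8.46 and 7.54 against 12.32, 10.28 and 12.22. The differences were 3.86 ± 0.49, 4.16 ± 0.62 and 3.62 ± 0.71 (limma, adjusted p = 0.00508, 0.00783 and 0.0186). On all 3 chains KA/KA 3 was the lowest lung-like array. The later-found chains Col6a4 and Col6a5 stayed below the array median on all arrays (from 4.30 to 6.09).

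Among the remaining chains, 5 passed, and they included the transmembrane chains Col13a1 and Col23a1. Col13a1 read 5.50 and 6.06 on the marrow-like pair and 8.64, 9.42 and 11.14 on the lung-like arrays (4.19 ± 0.49, limma, adjusted p = 0.00407). Col23a1 read 6.74 and 5.81 against 8.04, 8.96 and 10.19 (2.88 ± 0.68, limma, adjusted p = 0.0318). Both were highest on WT 2. Col18a1, a multiplexin of basement membranes whose end fragment is endostatin, read 6.24 and 6.56 against 10.09, 9.04 and 10.07 (3.41 ± 0.41, adjusted p = 0.00431). Col8a2, a network-forming chain of vessel and corneal matrix, read 4.89 and 5.15 against 7.33, 7.03 and 8.86 (2.90 ± 0.48, adjusted p = 0.011). Col16a1, a fibril-associated chain, read 7.51 and 7.46 against 9.76, 8.51 and 9.56 (1.83 ± 0.45, adjusted p = 0.0367) and lost its call with quantile normalisation or median centring (limma, adjusted p = 0.0684 and 0.0642). Without KA/KA 1, WT 1 or WT 2, none of Col6a1, Col6a2, Col6a3, Col18a1, Col8a2, Col23a1 and Col16a1 passed, and Col13a1 passed only without KA/KA 1. Without KA/KA 3, Col23a1 did not pass.

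Other chains did not pass between the sets. Col14a1, a fibril-associated chain, was above the array median on all 5 arrays and was highest on KA/KA 1 (10.99 and 9.52 on the marrow-like pair, 10.69, 8.67 and 10.14 on the others), although its other probe sets did not point the same way between the sets. Col25a1, a transmembrane chain of nerve and muscle, was lower on all lung-like arrays (6.82 and 7.40 against 6.26, 6.44 and 5.85) without passing (-0.93 ± 0.44, limma, adjusted p = 0.187). Col19a1 read 7.26 on KA/KA 1 and between 5.59 and 6.18 on the other arrays. Col17a1, which anchors basal epithelial cells through hemidesmosomes, read 10.25 on KA/KA 2 and 6.03 to 7.24 elsewhere. Col7a1, the anchoring fibril chain below squamous epithelium, read 8.93 on KA/KA 2 and 7.23 to 7.66 elsewhere, so both chains stood out on KA/KA 2.

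Genes that fold, cut and cross-link collagen were higher on the lung-like arrays too. Of 19 enzymes and chaperones measured, 13 were higher and 1 lower (median 1.91; limma, adjusted p under 0.05; background as above). Serpinh1, the collagen chaperone HSP47, read 8.05 and 8.51 on the marrow-like pair against 11.47, 10.17 and 11.60. P4ha2, a subunit of the prolyl hydroxylase that stabilises the helix, differed by 4.73 ± 0.36 (limma, adjusted p = 0.0015). Colgalt1, which adds galactose to collagen, was lower (11.47 and 11.35 against 10.77, 10.17 and 10.35; limma, adjusted p = 0.049). Of 12 processing and cross-linking genes 7 were higher and 0 lower (median 3.01), led by Pcolce2, an enhancer of procollagen cleavage (6.08 ± 0.71). Of 9 collagen receptors 5 were higher and 0 lower (median 1.09), among them Mrc2, which takes up collagen (4.06 ± 0.43), and Ddr2 (3.23 ± 0.31).

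Most matrix partners of collagen were higher on the lung-like arrays as well (limma, adjusted p under 0.05, where 14.9% of all genes were higher and 8.46% lower). Of 14 proteoglycans and fibril partners, 12 were higher and 0 lower (median 4.03), with Mfap4 at 7.67 ± 0.44 and periostin (Postn) at 5.41 ± 0.56. Of 13 basement membrane partners 10 were higher and 0 lower (median 3.80), with the laminin chain Lamb3 at 4.78 ± 0.80 and agrin (Agrn) at 4.15 ± 0.27. Fibroblast markers outside the collagens were higher for 8 of 12 and lower for 0 (median 4.76), smooth muscle markers for 5 of 5 (median 5.44), and endothelial markers for 8 of 10 (median 3.48). The fibroblast marker Pi16 ran the other way (8.75 and 9.13 against 4.94, 7.53 and 6.61) without passing. Summed signals of the fibroblast markers were 1374 and 1237 on the marrow-like pair and 33252, 59207 and 60695 on KA/KA 2, KA/KA 3 and WT 2. The part of each cell type in the collagen signal was not tested.

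**Figure D3:**
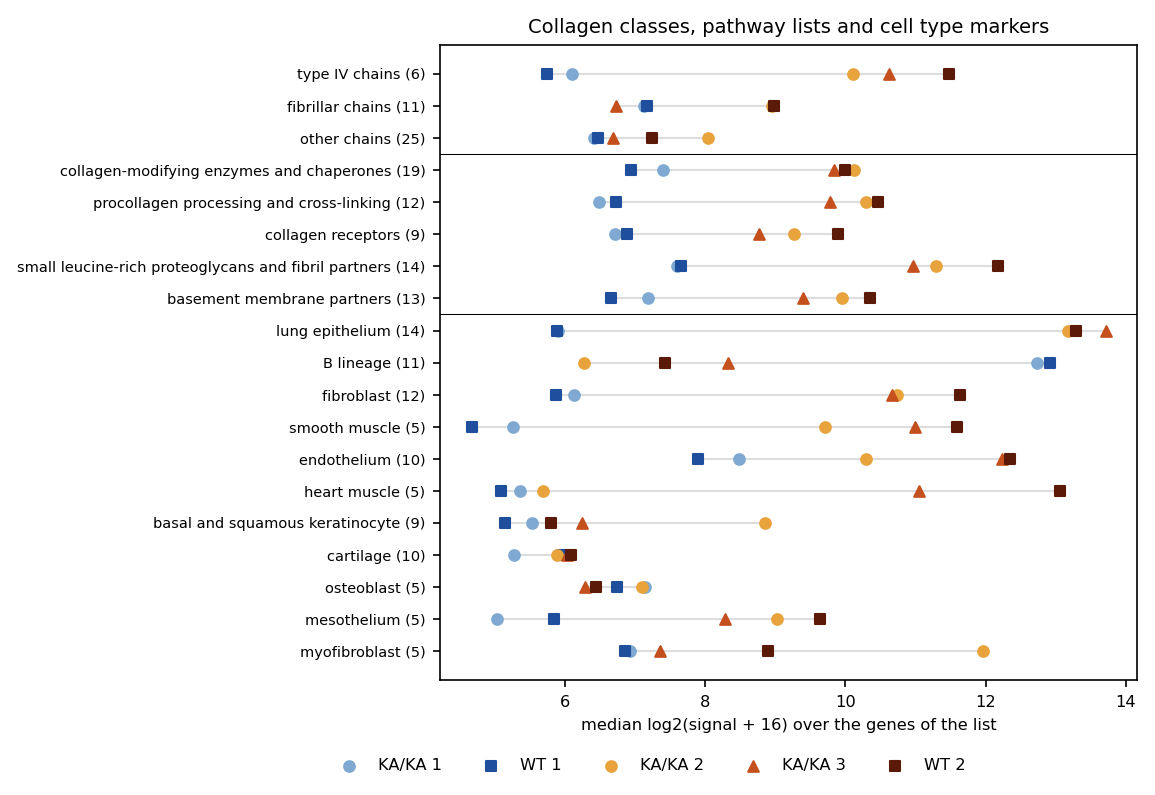
Median log2(signal + 16) on each array over the genes of the collagen classes, the pathway lists and the cell type marker lists, with the number of genes in parentheses; each symbol is 1 array, and levels are to be read across arrays within a line. The orange KA/KA 2 circle stands far to the right of the other arrays in the keratinocyte and myofibroblast lines and next to the marrow-like pair in the heart muscle line. In the myofibroblast line, of 5 genes, this circle is the value of tenascin C (Tnc), while the WT 2 symbol is that of another gene, Cthrc1. Gene by gene, the median of KA/KA 2 minus WT 2 over that list was only 0.60.

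Inside the lung-like arrays, KA/KA 2 and KA/KA 3 were compared with WT 2. No gene passed limma's test (0 of 42 collagen genes and 0 of 18193 genes, 0% of all tested, smallest adjusted p = 0.872). The lone WT array was assumed to vary like the KA/KA arrays, and an exact permutation test of 2 arrays against 1 could not go below 0.333. At an unadjusted p under 0.05, 7 collagen genes were lower and 0 higher, where 2.51% of all genes were lower and 3.09% higher. The same 7 genes were at least 2-fold lower on both KA/KA arrays than on WT 2, as were 2.73% of all genes, and 0 collagen genes were at least 2-fold higher on both, as were 3.51% of all genes. They were Col4a3, Col4a5, Col4a6, Col13a1, Col23a1, Col8a2 and Col6a4. Counting any size, 17 collagen genes were below WT 2 on both KA/KA arrays and 6 above it, where 37% of all genes were below and 31.8% above.

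Type IV collagen was divided by chain in this comparison. Col4a1 and Col4a2 were level with WT 2 (KA/KA 2 and KA/KA 3 minus WT 2: 0.28 and 0.07 for Col4a1, 0.39 and -0.09 for Col4a2). The α3 to α6 chains lay below WT 2 on both KA/KA arrays: by -1.97 and -1.67 for Col4a3, -1.31 and -0.50 for Col4a4, -1.30 and -1.09 for Col4a5, and -1.76 and -1.44 for Col4a6. Every probe set of these 4 genes (2, 3, 2 and 2) had both KA/KA arrays below WT 2. Fitted differences were -1.82 ± 0.31 for Col4a3, -0.90 ± 0.45 for Col4a4, -1.20 ± 0.29 for Col4a5 and -1.60 ± 0.43 for Col4a6, each with an adjusted p of 0.872 or 0.874. On the probe sets used, KA/KA 2 minus KA/KA 3 was smaller than these fitted differences (-0.30, -0.81, -0.21 and -0.32). For Col4a4 it was larger than KA/KA 3 minus WT 2 (-0.50). Second probe sets had wider gaps for Col4a3 (7.93 on KA/KA 2, 9.26 on KA/KA 3) and Col4a6 (5.71 and 6.88). The second probe set of Col4a5 read 9.09 and 8.84. The spread of WT is not known from 1 array. In the marrow-like pair, KA/KA 1 minus WT 1 was -1.05 for Col4a3, 0.77 for Col4a4, 0.09 for Col4a5 and 1.06 for Col4a6, read from signals near or below the array median.

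Most markers of smooth muscle, endothelium, heart muscle and fibroblasts were also below WT 2 on both KA/KA arrays. Lung epithelial markers went both ways. In list medians, smooth muscle, endothelium and heart muscle fell further on KA/KA 2 than on KA/KA 3 (heart muscle -5.32 and -2.46). Gene by gene, the median of KA/KA 2 minus KA/KA 3 was -1.87 for endothelium and -3.13 for heart muscle. For smooth muscle it was only -0.09, and Acta2 and Tagln were lower on KA/KA 3. Of 13 basement membrane partners, 9 were below WT 2 on both (list medians -0.41 on KA/KA 2 and -0.85 on KA/KA 3) and 1 above it on both. Of 14 lung epithelial markers, 5 were below WT 2 on both KA/KA arrays and 7 above it on both, where 37% and 31.8% of all genes were. Aqp5, a water channel of flat alveolar and gland cells, read 8.47 and 9.52 on KA/KA 2 and KA/KA 3 and 11.32 on WT 2, whereas Ager, the defining gene of flat alveolar cells, read 14.06 and 14.39 against 14.03, and the surfactant gene Sftpd lay above WT 2 by 1.37 and 1.22. Of 5 smooth muscle markers 4 were lower on both KA/KA arrays (medians of the list -1.60 and -0.55), and of 10 endothelial markers 7 were (-2.39 and -0.39), against the same 37% of all genes. All 5 heart muscle markers were at least 2-fold lower on both, as were 2.73% of all genes, with summed signals of 1165, 8246 and 38647 on KA/KA 2, KA/KA 3 and WT 2. Of the fibroblast markers 9 of 12 were lower on both (37% of all genes); Tcf21, a transcription factor of lung fibroblasts, read 10.90 and 11.49 against 13.18. The part of these cells in the type IV values was not tested. Col13a1 (KA/KA 2 and KA/KA 3 minus WT 2: -2.50 and -1.72), Col23a1 (-2.14 and -1.22) and Col8a2 (-1.53 and -1.83) lay in the same direction. Col6a4 did too (-1.24 and -1.11), but it was below the array median on every array, and its second probe set did not have both KA/KA arrays below WT 2.

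**Figure D4:**
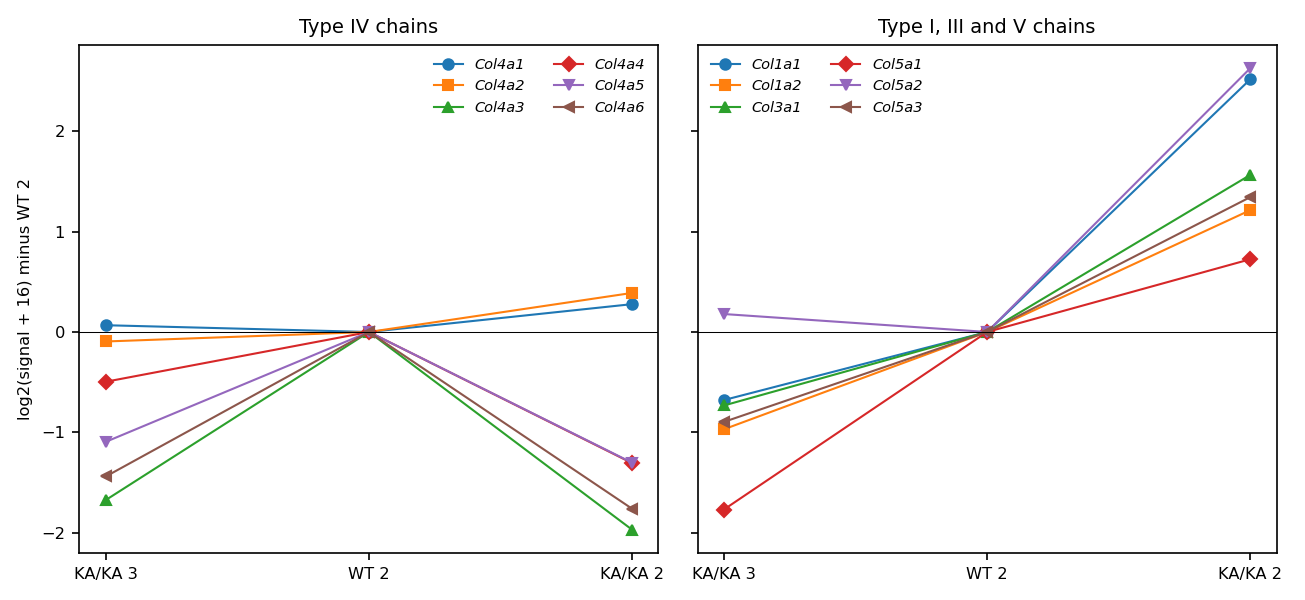
Difference from WT 2 on the lung-like arrays (log2(signal + 16) on the y axis, WT 2 set to 0) for the type IV chains on the left and the chains of types I, III and V on the right; each colour and symbol is 1 gene, and lines only join its points. Col4a1 and Col4a2 stay within 0.39 of WT 2 while Col4a3 to Col4a6 lie below it on both KA/KA arrays; of the chains on the right, 5 of 6 lie above WT 2 on KA/KA 2 and below it on KA/KA 3.

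The fibrillar chains of types I, III and V mostly gave opposite answers on the KA/KA arrays. Of the 6 chains of types I, III and V, all 6 were at least 2-fold higher on KA/KA 2 than on KA/KA 3, as were 7.48% of all genes, and 5 of 6 lay above WT 2 on KA/KA 2 and below it on KA/KA 3, as did 15.4% of all genes. Col1a1 minus WT 2 was 2.52 on KA/KA 2 and -0.68 on KA/KA 3, Col1a2 1.21 and -0.97, and Col3a1 1.56 and -0.73. Col5a1 stood at 0.72 and -1.77, Col5a3 at 1.34 and -0.90, and Col5a2, the exception, at 2.63 and 0.18. The exception held for that probe set only, as the second Col5a2 probe set stood at 2.34 and -0.16. A second, dimmer probe set of Col5a3 ran the other way (4.90 on KA/KA 2, 5.96 on KA/KA 3 and 5.35 on WT 2). The median over the 11 fibrillar chains was 1.21 on KA/KA 2 and -0.73 on KA/KA 3. Of these 11, 6 lay above WT 2 on KA/KA 2 and below it on KA/KA 3. Another 3 (Col5a2, Col11a2 and Col24a1) lay above it on both, and 2 (Col2a1 and Col27a1) below it on both. Over all genes these shares were 15.4%, 31.8% and 37%. The mean of the KA/KA arrays (median 0.22) therefore hides opposite directions for the chains that split. The sign of the class median rests on which KA/KA array is used. The spread between KA/KA 2 and KA/KA 3 was larger than the fitted genotype difference for each of the 6 chains, for example 3.19 against 0.92 ± 1.47 for Col1a1.

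KA/KA 2 was also above KA/KA 3 for some other chains that lie in fibrils or around cells, but not for the other chains as a class. Of those 25 chains, 12 were higher on KA/KA 2 than on KA/KA 3 (median difference -0.008), as were 8763 of 18193 genes. Over all 42 genes, 18 were at least 2-fold higher on KA/KA 2 than on KA/KA 3, as were 7.48% of all genes. These 18 were made up of 8 fibrillar, 10 other and 0 type IV chains. Besides types I, III and V they included Col12a1 (10.58 and 7.26), Col15a1 (8.18 and 5.27), Col6a2 (12.52 and 10.45) and Col14a1 (10.69 and 8.67). The other, dimmer Col12a1 probe sets showed no 2-fold gap (8.24 and 7.51, 5.91 and 5.57, 5.53 and 5.70). Col17a1 differed most, by 4.22.

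Markers of squamous epithelium set KA/KA 2 apart in the same way. Of the 9 keratinocyte markers, 7 were at least 2-fold higher on KA/KA 2 than on KA/KA 3, as were 7.48% of all genes. Krt14, a keratin of basal cells, read 13.90 on KA/KA 2 against 4.53 on KA/KA 3 and 5.56 on WT 2, and the summed signal of the 9 keratinocyte markers was 36174 on KA/KA 2 against 416 and 672. Krt4 was highest on WT 2 (6.20, 5.40 and 7.06), and Dsc3 was lower on KA/KA 2 than on KA/KA 3 (6.23 and 6.49). Tenascin C (Tnc), of the myofibroblast list, read 11.97 on KA/KA 2, 7.35 on KA/KA 3 and 8.72 on WT 2. Of the 14 proteoglycans and fibril partners, 10 were higher on KA/KA 2 than on KA/KA 3, as were 8763 of 18193 genes. At least 2-fold higher were 6, as were 7.48% of all genes. Dcn, Ogn, Tnxb and Mfap4 were lower on KA/KA 2 than on KA/KA 3 (Dcn 11.11 and 11.91, Tnxb 7.02 and 9.10). Within this list, fibronectin (Fn1) and fibromodulin (Fmod) were highest on KA/KA 2. Fn1 read 14.60, 13.21 and 13.01, and Fmod 10.92, 7.18 and 8.46, on KA/KA 2, KA/KA 3 and WT 2. Of the 12 fibroblast markers outside the collagens, 4 were higher on KA/KA 2 than on KA/KA 3 and 0 were at least 2-fold higher, a count near the 7.48% of all genes. Pdgfra read 12.10 on KA/KA 2 and 12.87 on KA/KA 3, and Pdgfrb 12.48 and 11.62. The part of these cells in the fibrillar values was not tested.

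**Figure D5:**
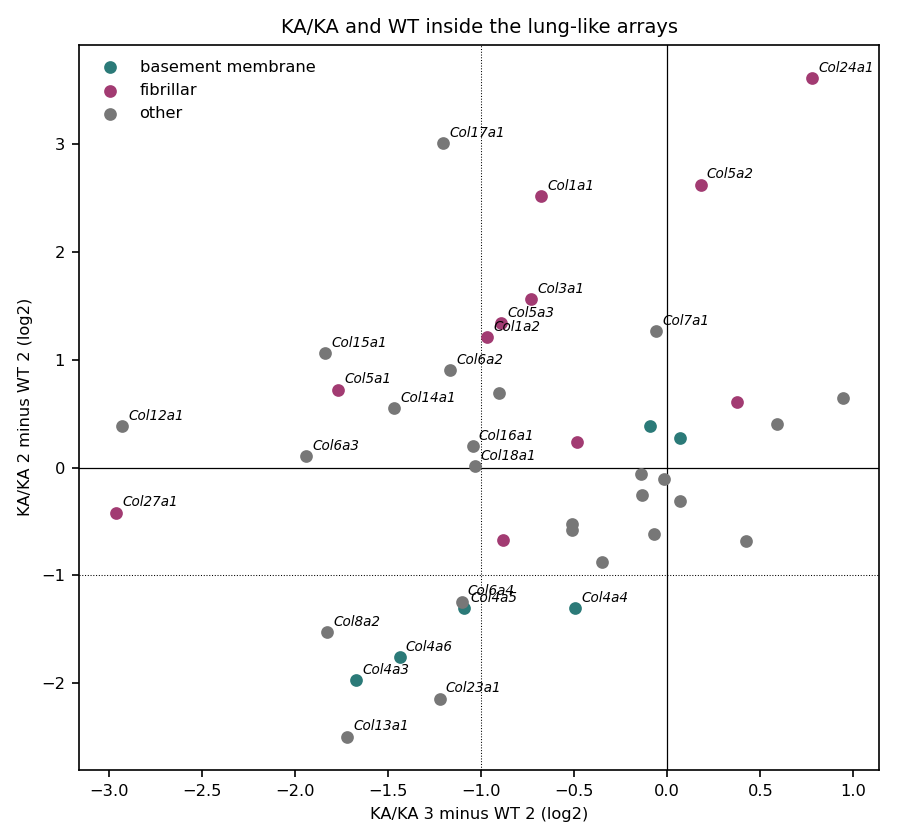
KA/KA 2 minus WT 2 (y axis) against KA/KA 3 minus WT 2 (x axis), both log2, for the 42 collagen genes coloured by class; both axes share WT 2, so points move along the diagonal with that array. Dotted lines mark a 2-fold lower signal; Col4a3, Col4a5 and Col4a6 lie below and left of both, with Col13a1, Col23a1, Col8a2 and Col6a4, while Col1a1, Col5a2, Col17a1 and Col24a1 lie at the top.

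Over all 5 arrays, the comparison the labels state, limma called 0 of 42 collagen genes and 0 of 18193 genes (0%), with 0 collagen genes and 186 genes (1.02%) at an unadjusted p under 0.05. This fit ignores the array sets, so the error of the type IV chains was far larger than their difference: Col4a3 stood at -0.60 ± 2.34 and Col4a1 at 1.15 ± 2.07 (KA/KA minus WT). Once the array set entered as a block, the values were -1.49 ± 0.35 and 0.35 ± 0.24, and again 0 genes passed. The test of whether KA/KA minus WT differed between the array sets called 0 collagen genes and 0 genes in all. At an unadjusted p under 0.05 it gave 4 collagen genes (Col4a6, Col19a1, Col23a1 and Col2a1) and 850 genes (4.67%). Col4a6 had the smallest value of these, with -1.60 in the lung-like set and 1.06 in the marrow-like pair (difference -2.66 ± 0.76, limma, adjusted p = 0.845).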

How the data were processed

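The deposited data were linear intensity values of 45101 probe sets on 5 Affymetrix mouse arrays, hybridised with biotin-labelled material from 150 ng of RNA, per the labels' protocols. The submitters' processing notes name MAS5 (version not given in the sources used here), while the design text mentions a log2 step in Partek. The values were linear (highest signal 21977 to 40821) with a trimmed mean of 500 on each array, so log2(signal + 16) was computed.

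Control probe sets (64) and probe sets without exactly 1 symbol were left out. No filter on dim probe sets was used, so that all 42 collagen genes were tested. limma 3.58.1 in R 4.3.3 (lmFit, eBayes with trend) was fitted on 18193 genes, with two-sided p-values adjusted over all of them (Benjamini-Hochberg). A run on simulated data was required only to return the size of planted changes. It set no requirement on power or false calls. Array sets were defined by the median log2 signal of 24 poly-A control probe sets (border 10). Named genes were the type IV and the types I, III and V chains, members past a threshold, and per class those of largest difference; lists are given by counts, medians and a few members. Other members were named after their values were seen. The members, lists and array sets were chosen with earlier results of these data known. Positions and promoters come from RefSeq (GRCm38.p6). Alternatives are given in the closing section.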

Additional observations from a re-analysis of the deposited data

How the results depend on the processing

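The alternatives were other pseudocounts, quantile normalisation, median centring, filters on dim probe sets, averaged or unshared probe sets, other eBayes settings, no genotype covariate, blocks, and leaving out each array. The count of 15 collagen genes between the array sets ranged from 5 to 19 when 1 array was left out (6 without KA/KA 1, 5 without WT 1 or WT 2, 18 without KA/KA 2 and 19 without KA/KA 3), and was 8 of the 10 members left under an upper-quarter filter. Over the other settings it was 13 to 17, with 0 lower. Class medians of the set difference moved to 4.35 for type IV with a pseudocount of 64, to 2.66 for other chains with the median filter, and to 3.40 for fibrillar and 3.73 for other chains with the upper-quarter filter, where fewer genes remain. By over 1.5 times they also moved to 2.10 for fibrillar chains with the median filter, and to 0.40 and 0.46 for other chains with median centring and quantile normalisation. Without 1 array they ranged from 4.84 to 5.25 for type IV, 0.49 to 1.79 for fibrillar and 0.37 to 0.97 for other chains. The KA/KA minus WT median of type IV inside the lung-like arrays was 0.16 with the upper-quarter filter, which kept only Col4a1 and Col4a2; without 1 KA/KA array it was -1.30 to -0.79 for type IV, -0.73 to 1.21 for fibrillar and -0.90 to -0.06 for other chains. With all lung-like arrays kept, it was 0.078 to 0.67 for fibrillar and -0.47 to -0.13 for other chains over the settings. With only 1 KA/KA array, or without WT 2, that comparison has no test. Comparisons of genotype called 0 collagen genes in every setting run. The replicate number as a block called 0 collagen genes; same-numbered arrays deviated together (r = 0.82 and 0.54 across genes), but the numbers follow the array sets and only 2 pairs exist. Dim chains near the floor of the scale allow no statement on small changes.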
